A study of Rattus norvegicus with 12 samples.

Results

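Ept2 and Ept6 are congenic rat lines that both carry COP alleles on chromosome 3, at the loci *Ept2* and *Ept6*, on a genetic background that is otherwise ACI. Expression was compared directly between the 3 arrays of Ept2 and the 3 arrays of Ept6, which are 6 of the 12 arrays of the series. All 6 hold anterior pituitary RNA of male rats that received a Silastic implant with 5 mg of the synthetic estrogen diethylstilbestrol (DES) at 9 weeks of age, were treated for 12 weeks and were killed at 21 weeks, 4 h after an injection of BrdU at 50 mg/kg. The other 6 arrays belong to the lines Ept1 (COP alleles on chromosome 6) and Ept9 (chromosome 10), which received the same treatment. They were used to ask which of the 2 chromosome 3 lines stood apart from other congenic lines, because no array of the ACI parent and no untreated array was analysed here. They also entered a second fit of all 12 arrays, from which further genes are named below. The bounds of the introgressed segments are not given in the labels. The labels conflict on replication, with 3 biological replicates per line in one place and 3 males giving fewer independent replicates in another, so the spread between arrays may be in part technical.

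Estrogens drive growth of the lactotrophs, the prolactin cells of the anterior pituitary, and rats of the ACI strain respond with prolactin-producing tumors. An *Ept* (estrogen-induced pituitary tumor) locus is a stretch of the genome where COP and ACI alleles were linked to a different response. A congenic line carries such a stretch from the donor strain, so a gene inside it is read from COP alleles, while nearly all genes outside it are read from ACI alleles in every line. Lines with such stretches on the same chromosome can differ at genes of either stretch and at genes elsewhere that respond to them. On a short-oligonucleotide array a probe set can also read differently because a base under a probe differs between alleles.

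The 6 arrays were pituitary by their markers. *Prl*, which encodes prolactin, had signals of 45078, 51767 and 43841 in Ept2 and of 43843, 43061 and 42834 in Ept6. *Gh1*, which encodes growth hormone, had signals of 40693, 36070 and 38199 in Ept2 and of 27923, 32224 and 32315 in Ept6. Neither passed the test (limma, log2 difference 0.11 ± 0.09 SE, adjusted p = 0.744 for *Prl*, and 0.32 ± 0.09, adjusted p = 0.282 for *Gh1*), although the *Gh1* signals did not overlap. Both lay near the top of the signal range (the highest signal of an array was 43061 to 51767 over the 6 arrays), where a difference may be compressed. The probe set used for *Pomc*, the corticotroph prohormone gene, was dim on all 6 arrays, with signals between 10.6 and 120.6. Whether it reads the transcript well was not tested. Correlations between the 6 arrays ran from 0.9585 to 0.9667, and no 2 arrays held the same values. RNA quality moved with the line: the difference between the 3′ and 5′ *Gapdh* control probe sets, which widens as RNA is cut or copied short, was 0.400, 0.314 and 0.422 (log2) in Ept2 and 0.121, 0.203 and 0.0879 in Ept6, with 0.165 to 0.278 in Ept1 and Ept9. The exact permutation p for this difference was 0.1, the smallest that 3 arrays against 3 can give. The same p was found for the other 2 controls, which did not overlap between the lines either. Beta-actin gave 1.76, 1.85 and 1.81 in Ept2 and 1.49, 1.72 and 1.56 in Ept6. Hexokinase gave 1.54, 1.07 and 1.26 in Ept2 and 0.844, 1 and 0.978 in Ept6. Because the *Gapdh* values did not overlap between Ept2 and Ept6, a fit with the *Gapdh* difference as a covariate can hardly tell it from the line. The part of RNA quality in the results below was not tested beyond that fit.

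Of 31042 probe sets, 53 differed between Ept2 and Ept6 at an adjusted p below 0.05 (limma, Benjamini-Hochberg), which is 0.171% of those tested. The level was higher in Ept2 for 19 (0.0612%) and lower for 34 (0.11%), and the difference reached 2-fold for 25, with 11.5-fold the largest. These 53 probe sets read 41 genes with a single symbol. Arrays of the 2 lines did not overlap at any of the 53, which follows nearly from the choice by this test, and they did not overlap at 15.3% of all probe sets. The count was small and depended on the test. A fit of all 12 arrays, with the spread of the 4 lines pooled, called 273 probe sets between Ept2 and Ept6 (0.879%), among them 52 of the 53. An unadjusted p below 0.05 was found for 3033 probe sets (9.77%). With 1 array left out, 33, 39 and 21 probe sets were called without Ept2 replicate 1, 2 and 3, and 15, 17 and 10 without Ept6 replicate 1, 2 and 3. In limma without a trend of the variance on signal 1 probe set was called, and with the *Gapdh* difference as a covariate none was (2031 at an unadjusted p below 0.05). In total 9 probe sets passed with every array left out in turn, 6 of them with a gene symbol: *Fubp3*, *Spint1*, *Sardh*, *Nif3l1*, *Tmed9* and *Anp32a*.

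Chromosome 3, which carries both loci, held 11 of the called probe sets among its 1568, or 0.702%. The other chromosomes together held 31 of 19244 (0.161%), and probe sets with no chromosome held 11 of 10230 (0.108%). The 11 probe sets read 11 genes of the 1073 measured on chromosome 3 (1.03%, against 0.289% of all 14204 genes with a chromosome). The called probe set was higher in Ept2 for *Fubp3*, *Harbi1*, *Spint1*, *Lrrc57*, *Ccndbp1*, *Sppl2a* and *Kcnip3*, and lower for *Sardh*, *Ptprj*, *Mapk8ip1* and *Mertk*. Other probe sets of *Fubp3*, *Harbi1*, *Sppl2a* and *Mapk8ip1* did not follow the called one, as given below for each gene. The count on chromosome 3 was 5, 7 and 4 without Ept2 replicate 1, 2 and 3, and 6, 5 and 3 without Ept6 replicate 1, 2 and 3. Of the 11 genes only *Sardh*, *Fubp3* and *Spint1* passed in all 6 of these fits. *Kcnip3* passed in 3, *Harbi1* and *Sppl2a* in 2, *Mertk* in 1, and *Lrrc57*, *Ccndbp1*, *Ptprj* and *Mapk8ip1* in 0. The next highest share was on chromosome 9, with 5 of 833 probe sets (0.6%).

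**Figure D1:**
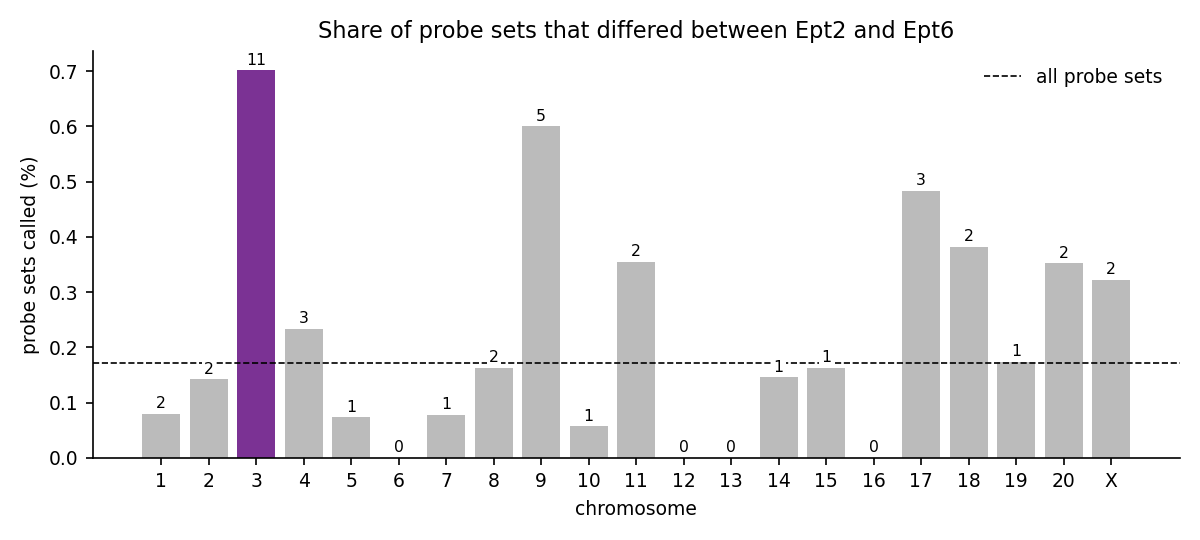
Percent of the probe sets of each chromosome called between Ept2 and Ept6 (limma, adjusted p below 0.05), with the number called above each bar and the share over all probe sets (0.171%) as a dashed line. Chromosome 3 stands at 0.702% with 11 probe sets and chromosome 9 at 0.6% with 5.

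Genes of chromosome 3 are given below in their order along the chromosome, counted over the 1073 measured genes in the GRCr8 annotation, since the deposited values name no genome build. The called genes fell into a pair at order 90 and 156 and a stretch of 9 genes from 407 to 647. A line is said to stand apart where the means of Ept1 and of Ept9 both lay nearer the other line. Ept6 stood apart at both genes of the pair, and Ept2 stood apart at 8 of the 9 genes of the stretch, all but *Mapk8ip1*.

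*Sardh* (order 90) encodes sarcosine dehydrogenase, a mitochondrial enzyme of one-carbon metabolism. Its signals were 474, 492 and 509 in Ept2 and 1262, 1311 and 1105 in Ept6, with 310.2, 354 and 334 in Ept1 and 539, 493 and 424 in Ept9. Each Ept6 array thus lay above all 9 others. The level was 2.44-fold lower in Ept2 than in Ept6 (log2 difference −1.29 ± 0.10 SE, limma adjusted p = 0.000623), and in the fit of 12 arrays Ept6 lay 1.57 ± 0.10 above Ept1 and Ept9 (adjusted p = 1.9e-07) while Ept2 differed from them by 0.28 ± 0.10 (adjusted p = 0.307). A second, dimmer *Sardh* probe set gave a log2 difference of −1.10 ± 0.24 between the lines, in the same direction (adjusted p = 0.158).

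*Fubp3* (order 156) encodes a single-strand nucleic acid binding protein of the far upstream element family. The called probe set had signals of 820.3, 1032 and 953 in Ept2 and of 181, 199 and 164 in Ept6, with 1084 to 1218 in Ept1 and 946 to 1147 in Ept9. Only Ept6 was low. The log2 difference of Ept2 minus Ept6 was 2.27 ± 0.14 (limma adjusted p = 0.000172), and Ept6 minus Ept1 and Ept9 was −2.49 ± 0.10 (log2, adjusted p = 3.4e-10). The other *Fubp3* probe set went the opposite way: its signals were 919.8, 1333 and 1084 in Ept2 and 1816, 2152 and 1735 in Ept6, and Ept6 lay 0.86 ± 0.11 above Ept1 and Ept9 (log2, adjusted p = 0.00455). The 2 probe sets of the same gene therefore set Ept6 apart in opposite directions, and its total transcript level has no single direction in these data. Whether a base difference under the probes moved either reading was not tested, as probe sequences were not used here.

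Against Ept1 and Ept9, Ept6 differed at 4 genes of chromosome 3 (0.373%, against 0.134% of all genes), and these lay at order 90 to 174. Besides *Sardh* and *Fubp3* they were *Tor1b* (order 147), a torsin ATPase of the endoplasmic reticulum, and *Lcn2* (order 174), a lipocalin that binds iron carriers of bacteria. Both were named after their values were seen. *Lcn2* had signals of 185, 171 and 184 in Ept6, while the 9 arrays of the other lines lay between 2.1 and 47.6. Ept6 lay 2.88 ± 0.43 above Ept1 and Ept9 (log2, limma adjusted p = 0.0102), while the direct comparison missed the threshold (log2 difference of Ept2 minus Ept6 −2.68, adjusted p = 0.0709). *Tor1b* was higher by 0.49 ± 0.07 in Ept6 than in Ept1 and Ept9 (log2, adjusted p = 0.00751) at its brighter probe set, with signals of 1174, 1217 and 1307 in Ept6 and of 905, 874 and 934 in Ept2, while its other probe set gave −0.10 ± 0.13.

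The bases before the start sites of both called genes of this end, from RefSeq on GRCr8, are shown because *Sardh* and *Fubp3* were called with every array left out in turn. Capitals mark the E-box CACGTG, a site read by basic helix-loop-helix factors, and the GC box GGGCGG or its complement CCGCCC. RefSeq gives *Sardh* a pair of starts, both on the minus strand, with upstream windows at chr3:30972138-30972387 and chr3:30971658-30971907. The *Fubp3* window is chr3:35253130-35253379 on the plus strand.

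Sardh, upper start: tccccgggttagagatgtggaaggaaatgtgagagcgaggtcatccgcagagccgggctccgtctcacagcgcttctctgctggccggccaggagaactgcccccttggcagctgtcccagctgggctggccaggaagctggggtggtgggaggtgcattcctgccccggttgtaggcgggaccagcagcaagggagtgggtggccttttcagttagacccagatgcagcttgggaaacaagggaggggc

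Sardh, lower start: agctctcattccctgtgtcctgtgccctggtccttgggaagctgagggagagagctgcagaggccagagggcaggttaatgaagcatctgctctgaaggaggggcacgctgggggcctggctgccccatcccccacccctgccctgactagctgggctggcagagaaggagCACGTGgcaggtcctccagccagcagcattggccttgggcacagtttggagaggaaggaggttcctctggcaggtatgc

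Fubp3: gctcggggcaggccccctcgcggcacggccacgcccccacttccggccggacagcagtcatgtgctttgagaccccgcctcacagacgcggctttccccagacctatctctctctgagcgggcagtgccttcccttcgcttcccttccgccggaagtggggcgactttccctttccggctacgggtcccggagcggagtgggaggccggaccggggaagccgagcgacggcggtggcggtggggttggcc

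The window of the lower *Sardh* start held 1 E-box, and neither motif was found in the other 2 windows. Over the 250 bases before all 33469 RefSeq starts, 5.59% of windows held the E-box. Among the 35 windows of called genes (34 of the 41 genes matched the table) 3 did, those of *Sardh*, *Sppl2a* and *Cbx6*. The palindromic estrogen response element, GGTCA and TGACC on either side of 3 bases, was in 0.0239% of all windows and in 0 of the 35. A match is a run of letters and not a shown binding site.

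The stretch from *Ptprj* to *Mertk* held the genes at which Ept2 stood apart. *Spint1* (order 548) encodes a Kunitz-type inhibitor of cell-surface serine proteases, among them the activator of hepatocyte growth factor. Its signals were 2393, 2556 and 2534 in Ept2 and 1228, 1212 and 1203 in Ept6. Ept1 lay between 1300.2 and 1401 and Ept9 between 1077 and 1309, so the Ept2 arrays were above all 9 others. The level was 2.04-fold higher in Ept2 than in Ept6 (log2 difference 1.03 ± 0.08 SE, limma adjusted p = 0.00059), and Ept2 lay 0.96 ± 0.07 above Ept1 and Ept9 (adjusted p = 2.2e-06) while Ept6 differed from them by −0.07 ± 0.07 (adjusted p = 0.871). The window before its start, shown as the gene of this stretch that was called with every array left out, is chr3:126685031-126685280 on the plus strand and held 4 GC boxes and no E-box. A GC box was in 30.5% of all windows and in 24 of the 35 windows of called genes (68.6%). The share over all windows was matched neither to the genes measured on the array nor to base composition, so nothing is read from this difference. G and C made up 70.4% of the *Spint1* window, beside a median of 51.2% over all windows. The GC box was added to the search after results were seen.

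Spint1: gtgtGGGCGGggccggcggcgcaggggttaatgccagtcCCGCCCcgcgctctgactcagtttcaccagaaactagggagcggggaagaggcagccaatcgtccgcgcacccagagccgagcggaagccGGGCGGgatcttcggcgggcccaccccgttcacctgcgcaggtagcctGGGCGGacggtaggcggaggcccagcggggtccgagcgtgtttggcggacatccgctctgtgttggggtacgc

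*Harbi1* (order 432), which derives from the transposase of a Harbinger DNA transposon, had the largest difference on the chromosome. Its signals were 779.7, 797 and 1033 in Ept2 and 21.7, 153 and 120.2 in Ept6, and all 6 Ept1 and Ept9 arrays lay between 105.2 and 162. One Ept6 array was far dimmer than the other 2. The log2 difference was 3.20 ± 0.45 (limma adjusted p = 0.0267), and Ept2 lay 2.59 ± 0.34 above Ept1 and Ept9 (adjusted p = 0.00222). A second probe set of *Harbi1*, with a mean signal of 756, gave a log2 difference of 0.0014 ± 0.14 between the lines (adjusted p = 0.998).

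At 4 other genes of the stretch the called probe set was higher in Ept2. *Sppl2a* (order 628), an intramembrane protease of the signal peptide peptidase family, had signals of 1120.2, 1491 and 1341 in Ept2 and of 732, 436 and 551 in Ept6 (log2 difference 1.20 ± 0.17, limma adjusted p = 0.0304). Its 3 other probe sets gave −0.08, −0.14 and −0.45, with none past the threshold. *Lrrc57* (order 572), a leucine-rich repeat gene, had signals of 675, 524 and 533 in Ept2 and of 249, 286 and 269 in Ept6 (1.06 ± 0.15, adjusted p = 0.0253). *Kcnip3* (order 639) encodes a calcium sensor that binds potassium channels and DNA. It had signals of 1590.4, 1694 and 1821 in Ept2 and of 951, 1077 and 946 in Ept6 (0.77 ± 0.09, adjusted p = 0.0116), and its second probe set gave 0.73 ± 0.17 in the same direction. *Ccndbp1* (order 577), whose product binds D-type cyclins, had signals of 1589, 1464 and 1501 in Ept2 and of 988, 1039 and 903 in Ept6 (0.63 ± 0.09, adjusted p = 0.0293). At all 4 genes the mean of Ept1 and the mean of Ept9 each lay nearer Ept6 than Ept2.

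Genes lower in Ept2 in this stretch included 2 receptors on the cell surface. *Ptprj* (order 407), a receptor-type tyrosine phosphatase, had signals of 179, 149 and 179 in Ept2 and of 439.9, 361 and 349 in Ept6, with 369 to 557 in Ept1 and 356 to 425 in Ept9. The Ept2 arrays lay below all others (Ept2 minus Ept6 log2 −1.11 ± 0.18, limma adjusted p = 0.0477). *Mertk* (order 647), a receptor tyrosine kinase through which phagocytes take up dying cells, had signals of 321, 389 and 325 in Ept2 and of 615, 602 and 688 in Ept6 (−0.85 ± 0.13, adjusted p = 0.0369), with Ept1 and Ept9 between 431 and 524, below Ept6 and above Ept2. Its second probe set gave −0.75 ± 0.29 and that of *Ptprj* −0.36 ± 0.09, both in the same direction and neither past the threshold.

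*Mapk8ip1* (order 442), a scaffold protein of JNK signaling, was the exception. Its signals were 1114, 1262 and 1325 in Ept2 and 1124, 1063 and 1235 in Ept1, against 1845, 2132 and 1843 in Ept6 and 1928, 1878 and 1882 in Ept9. Ept1 lay with Ept2 and Ept9 lay with Ept6, so neither chromosome 3 line stood apart from both references. The log2 difference of Ept2 minus Ept6 was −0.65 ± 0.10 (limma adjusted p = 0.0339), and the second, brighter probe set gave 0.0062 ± 0.10.

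**Figure D2:**
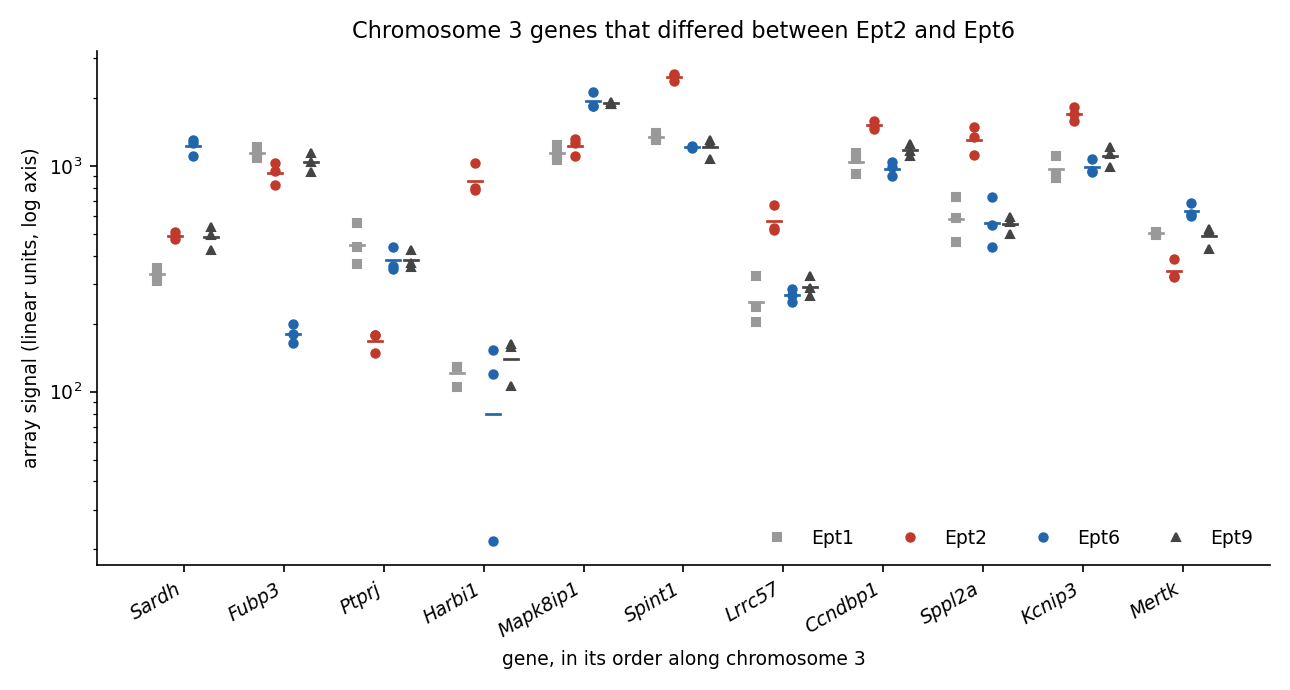
Array signal (linear units on a log axis) of the 11 called chromosome 3 genes in the order of the chromosome, with 1 point per array and a short line at each line's mean on the log2 scale. Ept6 stands apart from the other lines at *Sardh* and *Fubp3*, and Ept2 stands apart from *Ptprj* to *Mertk*, all but *Mapk8ip1*. At *Mapk8ip1* Ept1 lies with Ept2 and Ept9 with Ept6. At *Mertk* Ept1 and Ept9 lie between Ept2 and Ept6, slightly nearer Ept6.

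Set against Ept1 and Ept9 in the fit of 12 arrays, which share these reference arrays between both comparisons, Ept2 differed at 108 probe sets (0.348%) and Ept6 at 31 (0.0999%). The reference was the mean of Ept1 and Ept9 together, so a line could pass where it lay close to 1 of them. *Anp32a* passed for Ept2 (limma adjusted p = 0.00748) with mean signals of 735 in Ept2, 744 in Ept1 and 1774.5 in Ept9. These counts alone therefore do not show that a line stood apart from both references. Ept2 differed at 27 genes of chromosome 3 (2.52%, against 0.57% of all genes). *Fcna* lay at order 49, and the other 26 lay from 365 to 895. At *Fcna* the mean signal was 208 in Ept2, 284 in Ept1 and 649 in Ept9. No Ept2 gene fell in the range from 90 to 174 that held the 4 Ept6 genes. That range was set by the Ept6 genes. At the shares above few Ept2 genes would fall in so short a range, so nothing is read from their absence. Genes of the Ept2 stretch named after their values were seen include *Pcsk2*, the prohormone convertase, with signals of 876, 1145 and 1027 in Ept2 and of 1813, 1541 and 1488 in Ept6, at −0.62 ± 0.11 against Ept1 and Ept9 (log2, limma adjusted p = 0.0225). *Traf6*, an adaptor of innate immune and TNF family receptors, had 2 called probe sets at 0.79 ± 0.13 (adjusted p = 0.0151) and 1.08 ± 0.21 (adjusted p = 0.0393) and 2 uncalled ones, among them its brightest, at −0.04 and −0.28. *Mga*, a partner of MAX, had a called probe set at 1.10 ± 0.15 (adjusted p = 0.00242), while its brightest gave −0.19 ± 0.17. *Zfp770* had a called probe set at −1.60 ± 0.23 (adjusted p = 0.00515), while its brightest gave −0.03 ± 0.09. *Pcsk2* and *Iftap* (−0.60 ± 0.06, adjusted p = 0.000306) were read by 1 probe set each, so at 3 of these 5 genes the probe sets disagreed. In the direct comparison of 6 arrays the probe sets called against Ept1 and Ept9 missed the threshold, with adjusted p from 0.0757 to 0.251 and the same direction at each.

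**Figure D3:**
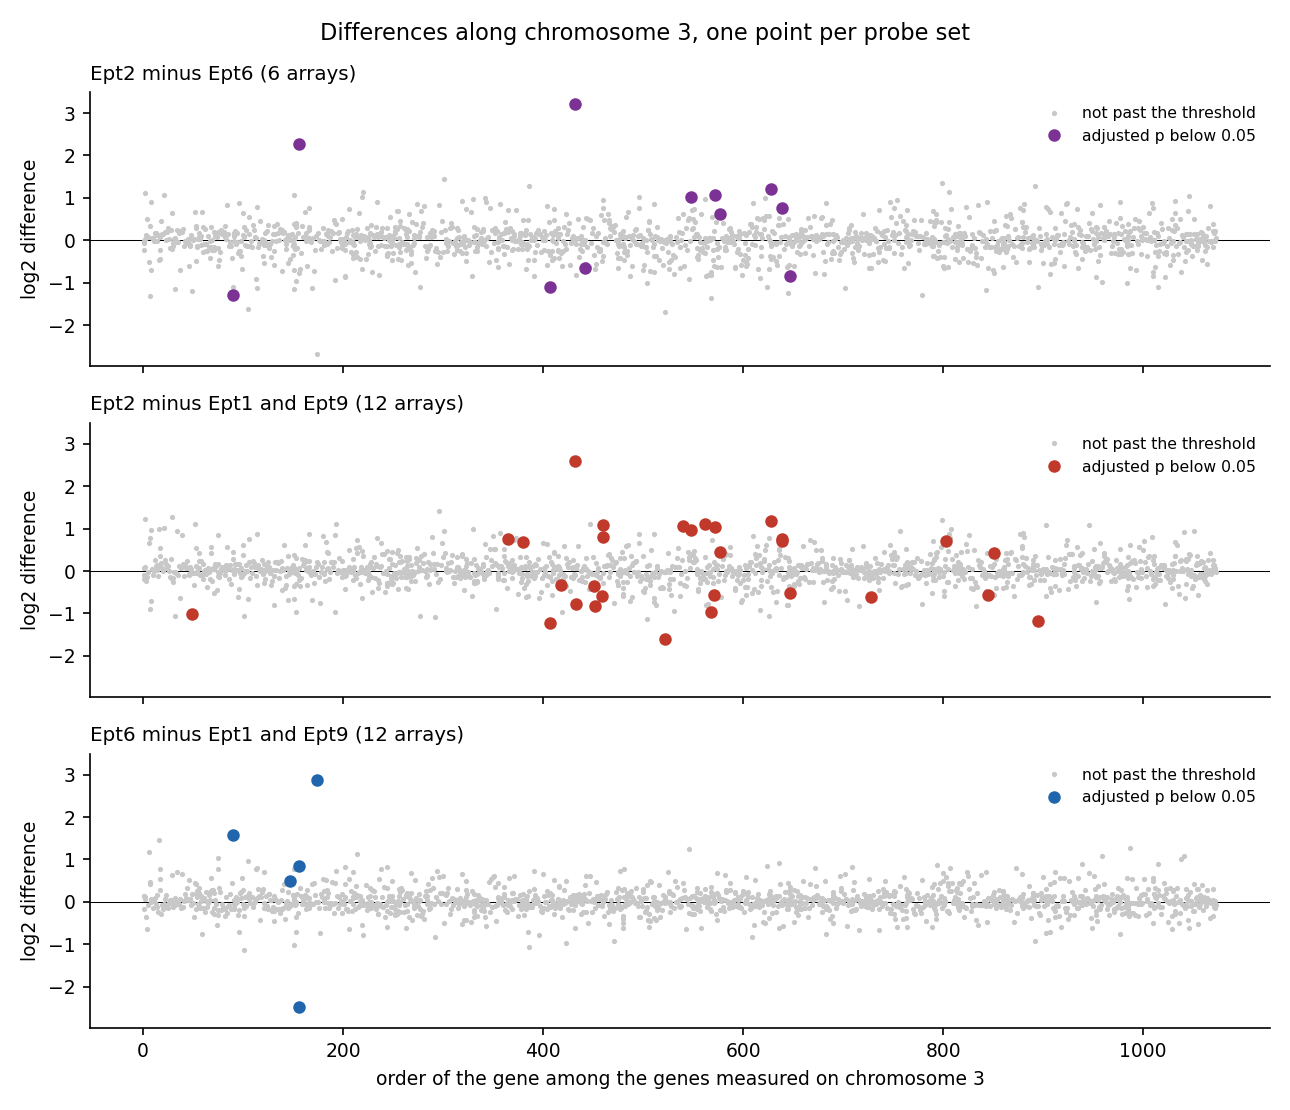
Log2 differences along chromosome 3, with 1 point per probe set at the order of its gene among 1073 measured genes and filled points where the limma adjusted p was below 0.05. The panels give Ept2 minus Ept6, Ept2 minus Ept1 and Ept9, and Ept6 minus Ept1 and Ept9: the Ept6 genes lie at order 90 to 174 and the Ept2 genes, but for the one at 49, at 365 to 895.

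On chromosome 9, which carries neither locus, the called genes lay close together. The 4 called genes stood at order 271 to 305 of the 565 measured. Against Ept1 and Ept9, Ept6 differed at 5 genes of the same range (0.885%, against 0.134% of all genes). Ept2 differed from them at 1 gene of the chromosome (*Slc40a1*, order 261). At *Slc40a1* the mean signal was 526 in Ept2, 707 in Ept1 and 1848 in Ept9. *Nif3l1* (order 299) had the largest difference of the whole comparison. Its called probe set had signals of 45.8, 36.2 and 62.9 in Ept2 and of 737, 713 and 695 in Ept6, with 26.6 to 86.4 over the 6 Ept1 and Ept9 arrays. Only the Ept6 arrays were bright. The log2 difference was −3.53 ± 0.21 (11.5-fold, limma adjusted p = 0.000172), and the second *Nif3l1* probe set was called too, with signals of 425, 387 and 362 in Ept2 and of 785, 862 and 873 in Ept6 (−1.07 ± 0.11, adjusted p = 0.00507).

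The other 3 called genes of chromosome 9 were named after their values were seen. *Trak2* (order 305), an adaptor that links mitochondria to kinesin, had signals of 928, 702 and 743 in Ept2 and of 1506, 1394 and 1257 in Ept6 (log2 difference −0.80, limma adjusted p = 0.0339), while its second probe set gave 0.36 ± 0.12 the other way. *Coq10b* (order 282), a coenzyme Q binding protein, had signals of 3421, 3474 and 3119 in Ept2 and of 2009, 2303 and 2229.6 in Ept6 (0.61, adjusted p = 0.0231). *Nab1* (order 271), a corepressor of EGR transcription factors, had signals of 1631, 1561 and 1656 in Ept2 and of 1107, 999 and 1138 in Ept6 (0.57, adjusted p = 0.0339). At all 5 called probe sets of chromosome 9 both Ept1 and Ept9 lay nearer Ept2 than Ept6. The window before the *Nif3l1* start, chr9:67474122-67474371 on the plus strand, is shown because this gene moved most, and it held 1 GC box and no E-box.

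Nif3l1: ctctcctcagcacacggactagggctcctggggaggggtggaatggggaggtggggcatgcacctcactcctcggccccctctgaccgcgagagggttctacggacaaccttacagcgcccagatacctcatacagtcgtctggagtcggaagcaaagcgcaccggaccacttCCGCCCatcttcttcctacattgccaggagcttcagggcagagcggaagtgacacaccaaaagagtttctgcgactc

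The 37 called probe sets not placed on chromosome 3 or 9, of which 11 have no chromosome here, showed another pattern. At 23 of them (62.2%) Ept1 lay nearer Ept2 and Ept9 lay nearer Ept6, a pattern found at 19.4% of all probe sets. The level was lower in Ept2 at 22 of these 23. Both reference lines lay nearer Ept6 at 8 of the 37 and nearer Ept2 at 4. On chromosome 3 the split pattern held at 1 of 11 called probe sets and on chromosome 9 at 0 of 5. For most of these probe sets, then, the choice of reference decided which line stood apart: over the 42 called probe sets not placed on chromosome 3, the Ept1 mean lay nearer Ept6 at 10 and the Ept9 mean at 31, while on chromosome 3 they did so at 8 and 9 of 11. The references one at a time were added after the data were seen. No label gives a batch of extraction, labeling or scanning, so the part of one in this pattern was not tested. The 3′ minus 5′ difference of *Gapdh* was 0.245 to 0.26 in Ept1 and 0.165 to 0.278 in Ept9, both between the means of Ept2 (0.379) and Ept6 (0.137). That of beta-actin was 1.59 to 1.79 in Ept1 and 1.58 to 1.62 in Ept9, beside means of 1.81 in Ept2 and 1.59 in Ept6, and that of hexokinase was 0.64 to 1.4 and 0.9 to 0.964 beside 1.29 and 0.942. The part of RNA quality in the split pattern was not tested.

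**Figure D4:**
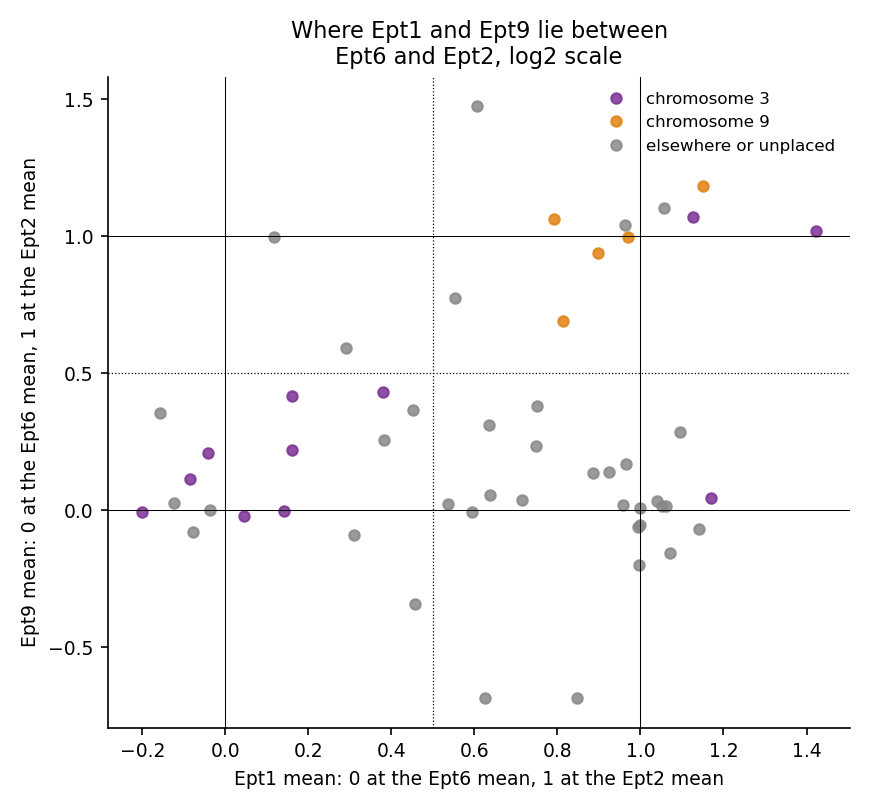
Position of the Ept1 mean (horizontal) and of the Ept9 mean (vertical) between the Ept6 mean, at 0, and the Ept2 mean, at 1, on the log2 scale, with 1 point per called probe set and dotted lines at the midpoint. Chromosome 3 points lie left of and below the midpoint lines (Ept2 apart) or right of and above them (Ept6 apart), but for 1. *Mertk*, at 0.38 and 0.43, lies close to the midpoint. All 5 of chromosome 9 lie at the upper right. Of the other 37, 23 lie at the lower right, where Ept1 is with Ept2 and Ept9 with Ept6.

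*Tmed9*, a cargo receptor of the early secretory pathway, was called with every array left out and showed this split. Its called probe set had signals of 628, 570.2 and 711 in Ept2 and 635, 512 and 682 in Ept1, against 1647, 2605 and 1858 in Ept6 and 2254, 1887 and 1661 in Ept9. The lines fell into 2 pairs that did not overlap. The log2 difference of Ept2 minus Ept6 was −1.63 ± 0.16 (limma adjusted p = 0.00258), yet the other *Tmed9* probe set, with a mean signal of 10820, gave −0.13 ± 0.07. *Anp32a*, a nuclear phosphoprotein, had signals of 705, 742 and 758 in Ept2 and 848, 619 and 765 in Ept1, against 1554, 1835 and 1660.3 in Ept6 and 1918, 1858 and 1547 in Ept9 (−1.18 ± 0.09, adjusted p = 0.000623).

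By its mean Ept1 lay nearer Ept2 and Ept9 nearer Ept6 at 4 further named genes given here. At *Ddx3x* the arrays of Ept1 (368.4 to 545.4) and Ept9 (411.5 to 674.4) overlapped. *Rad23b*, a nucleotide excision repair factor, differed by −1.46 ± 0.22 (log2, limma adjusted p = 0.0339) at the called probe set and by −0.05 ± 0.07 at one with a mean signal of 7103. *Ddx3x*, an RNA helicase, differed by −1.05 ± 0.15 (adjusted p = 0.0253) and by 0.11 ± 0.09 at one with a mean signal of 7325. *Thoc3*, a subunit of the THO complex, differed by −1.05 ± 0.16 (adjusted p = 0.0339), with −0.63 and −0.43 at its other probe sets. *Ing3*, a subunit of the NuA4 acetyltransferase, differed by −0.92 ± 0.14 (adjusted p = 0.0404), with −0.35 at its other one. The bright second probe sets of *Tmed9*, *Rad23b* and *Ddx3x* thus did not move with the called ones. Over all called genes with another probe set, 19 of 29 other probe sets had the same sign, 5 of 10 on chromosome 3 and 14 of 19 elsewhere. The count goes by sign alone. Small differences, such as those at the second probe sets of *Harbi1*, *Rad23b* and *Tmed9*, are counted as the same.

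The largest differences away from chromosomes 3 and 9 among named genes were at *Akr1b8* and *Hmox1*. *Hmox1*, the inducible heme oxygenase, had signals of 130.4, 325 and 284 in Ept2 and of 1000.2, 839 and 1203 in Ept6, with 740.3, 345 and 254 in Ept1 and 2660, 2015 and 3613 in Ept9. *Akr1b8*, an aldo-keto reductase, had signals of 59.8, 82.9 and 75.6 in Ept2 and of 456, 335 and 452 in Ept6, with 125, 136 and 50.3 in Ept1 and 1322, 1131 and 1282 in Ept9. Both genes were lowest on Ept2 and Ept1 arrays, higher in Ept6 and highest in Ept9. The log2 difference of Ept2 minus Ept6 was −2.05 ± 0.28 (limma adjusted p = 0.0231) for *Hmox1* and −2.27 ± 0.23 (adjusted p = 0.00354) for *Akr1b8*. Without 1 array *Hmox1* passed the threshold in 2 of 6 fits and *Akr1b8* in 4 of 6.

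These were the 2 called members, both lower, of 12 measured genes of oxidative stress and iron handling, beside 0.171% of all probe sets and 0.289% of genes called. The list was chosen with earlier results of these data known, so no enrichment is read from this count. Their list's median log2 difference was −0.15 (8 negative, 4 positive) beside −0.0017 over all probe sets and 0.030 with the *Gapdh* difference as a covariate. Of the uncalled members *Slc40a1*, the iron exporter ferroportin, had signals of 266, 702 and 609 in Ept2 and of 1392, 1164 and 1271 in Ept6 (log2 difference −1.36 ± 0.28, limma adjusted p = 0.133). *Gpnmb*, a glycoprotein of macrophages and pigment cells, gave −0.87 ± 0.20 (adjusted p = 0.178). Other targets of the oxidative stress response were not called: *Nqo1* gave 0.69 ± 0.23 (adjusted p = 0.367), and *Gclc*, *Gclm*, *Gsr*, *Txnrd1* and *Srxn1* lay between −0.16 and 0.17. *Hbb*, the beta-globin gene, was the 1 called member of the red blood cell list (3 measured), with signals of 19270, 18023 and 18546 in Ept2 and of 12898, 12954 and 14035 in Ept6 (0.49 ± 0.08, adjusted p = 0.0392). Between Ept2 and Ept6 its level went the opposite way to *Hmox1*, while Ept9 had the highest mean of both genes (22283 for *Hbb*, with 16313 in Ept1). *Hbb* passed the threshold in 0 of 6 fits without 1 array and missed it in the fit of 12 arrays (limma adjusted p = 0.0734). The other measured members of its list, *Alas2* and *Slc4a1*, gave 0.23 ± 0.17 and −0.42 ± 0.60. The summed signal of 15 leukocyte genes, among them macrophage markers, ran from 16723 to 27611 in Ept2 and from 20799 to 27971 in Ept6, and the part of such cells in these differences was not tested. In bulk tissue fewer cells of a type and less RNA per cell cannot be told apart.

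Of the named genes higher in Ept2 on chromosomes other than 3 and 9, 4 had both reference lines nearer Ept6. *Gpha2*, the alpha subunit of thyrostimulin, had signals of 1785, 1711 and 1672 in Ept2 and of 953, 1038 and 904 in Ept6, with 634 to 1309 over the reference arrays. The Ept2 arrays lay above all others (log2 difference 0.83 ± 0.09, limma adjusted p = 0.00505). *Cldn8*, a tight junction claudin, had signals of 477, 397 and 421 in Ept2 and of 193, 229 and 208 in Ept6, and it too stood apart from both references (0.99 ± 0.16, adjusted p = 0.0451). *Cdo1*, cysteine dioxygenase, was higher by 0.95 ± 0.15 (adjusted p = 0.0392), and *Car2*, carbonic anhydrase 2, by 0.80 ± 0.12 (adjusted p = 0.0339). At these 4 genes Ept2 lay above Ept1 and Ept9 with an adjusted p between 0.00515 and 0.038.

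For the remaining genes higher in Ept2 the reference lines disagreed or lay nearer Ept2. *Thrb*, the thyroid hormone receptor beta gene, had signals of 984, 771 and 733 in Ept2 and of 408, 489 and 426 in Ept6, with 762 to 1033 in Ept1 and 502 to 549 in Ept9 (log2 difference 0.88 ± 0.14, limma adjusted p = 0.0397). Its 3 other probe sets, among them one with a mean signal of 10340, gave 0.15, 0.13 and −0.15. *S100a6*, a calcium-binding protein of dividing and epithelial cells, was higher by 0.92 ± 0.13 (adjusted p = 0.0267), with Ept9 at the Ept2 level and Ept1 at that of Ept6. *Serpinb9*, an inhibitor of granzyme B, was higher by 0.91 ± 0.13 (adjusted p = 0.0302), and there both references lay nearer Ept2.

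Across the 20 gene lists, 3 memberships were called, those of *Hbb*, *Hmox1* and *Akr1b8*, and the other lists held none. With 0.171% of all probe sets and 0.289% of genes called, a list of this size would seldom hold a call, so the lack of one is not read as a result. The signs and medians below are description only, since members of a list are read on the same arrays and are not independent. Over all probe sets 49.8% of differences were positive. The medians differed in sign between lists. All 7 gonadotroph genes and all 8 measured folliculostellate and stem cell genes were higher in Ept2 by their means, with median log2 differences of 0.51 and 0.39, and so were all 4 thyrotroph genes (0.36). Of 33 cell cycle genes 26 were lower (median −0.13), as were 8 of 11 immediate early genes (−0.23) and 11 of 15 leukocyte genes (−0.13). The posterior lobe hormones *Avp* and *Oxt* were dim, at 6.2 to 154 in Ept2 and 5.9 to 104.8 in Ept6. The lactotroph list had a median of 0.11 over 8 genes, the estrogen response list 0.035 over 12 and the housekeeping list 0.039 over 6. With the *Gapdh* difference as a covariate the gonadotroph median was −0.14, the thyrotroph median −0.59 and the leukocyte median 0.50, each with the opposite sign. That fit can hardly tell RNA quality from the line, so no direction is read for these 3 lists from either fit. The corticotroph median turned from 0.33 to −0.51, that of housekeeping genes from 0.039 to −0.10, and the folliculostellate and stem cell median shrank to 0.091. Those of the cell cycle (−0.0997) and immediate early genes (−0.28) stayed negative.

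Single members show the spread behind these medians. *Tshb*, the thyrotropin beta gene, had signals of 18692, 7187 and 9820.2 in Ept2 and of 4554, 6526 and 5860.1 in Ept6 (log2 difference 0.97 ± 0.28, limma adjusted p = 0.270), and *Lhb*, the luteinizing hormone beta gene, had 352, 332 and 405 against 232, 318 and 209.9 (0.51 ± 0.19, adjusted p = 0.400). *S100b*, a folliculostellate marker, had 971, 704 and 751 against 474, 559.6 and 472 (0.66 ± 0.14, adjusted p = 0.147). Ept2 replicate 1 was the highest of the 6 arrays at *Tshb*, *S100b*, *Fshb*, *Gnrhr* and *Nr5a1*. *Vip*, a peptide that acts on lactotrophs, had the largest difference among the lactotroph genes, with 5971, 3091 and 4680.3 in Ept2 and 802, 1878 and 1649.6 in Ept6 (1.69 ± 0.30, adjusted p = 0.0757). *S100g*, the estrogen-responsive calbindin gene, had 15677, 11696 and 14703 against 5787, 8678 and 8105 (0.91 ± 0.15, adjusted p = 0.0635). In the last 2 genes the arrays of the lines did not overlap, but the threshold was missed.

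**Figure D5:**
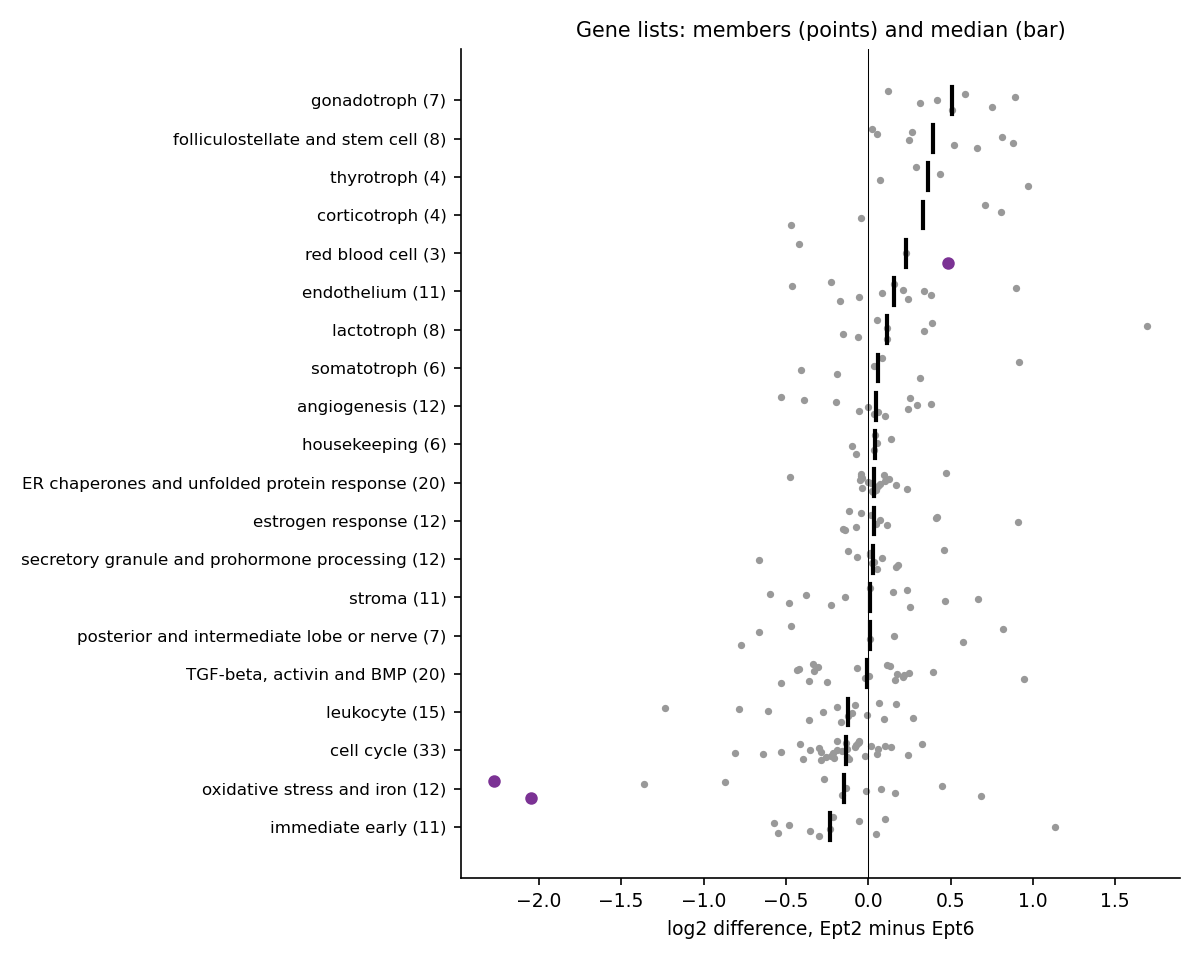
Log2 difference of Ept2 minus Ept6 for the members of 20 gene lists (1 point per gene, its brightest probe set), with a bar at each list's median, the number measured in brackets and called members as large points. The called members are *Hmox1* and *Akr1b8* at the left and *Hbb* among the red blood cell genes. The gonadotroph median is the highest at 0.51 and the immediate early median the lowest at −0.23.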

How the data were processed

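The values deposited by the authors are linear array intensity values (signals) of 31099 probe sets on an Affymetrix rat genome array, scaled so that the mean of each array, trimmed by 2% at each end, is 500.18 to 500.19. The software behind them is not given in the sources used here, and the table holds no detection calls. After 57 control probe sets were removed, log2(signal + 16) of the remaining 31042 was fitted with limma 3.58.1 in R 4.3.3 (lmFit, eBayes with a trend), Ept2 against Ept6 on 6 arrays, with no filter, two-sided, Benjamini-Hochberg adjustment and a threshold of 0.05. Fold sizes are on this scale and understate those of dim genes. The number of arrays limits the precision. A second fit of all 12 arrays set each line against Ept1 and Ept9. Errors are SEs of the log2 difference, with 3 arrays per line.

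Of the tested probe sets, 20826 have 1 gene symbol, 436 several and 9780 none, and 20812 have a chromosome in the GRCr8 annotation. Genes are named by a rule: up to 12 per direction with the largest difference among called probe sets with 1 symbol whose arrays do not overlap, called genes of chromosome 3 under the same condition, called list members, and 5 hormone genes; others are marked. The members and the gene lists were chosen with earlier results of these data known. Each list gene is read by its brightest probe set. Promoter windows come from RefSeq. The fits were tested on simulated data. The 19 alternatives include pseudocounts of 1 and 64, quantile normalization, median centring, filters at the 40th and 60th percentile, no trend, array weights, a replicate block, the *Gapdh* covariate and leaving out each array.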

Additional observations from a re-analysis of the deposited data

How the results depend on the processing

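Beside the 53 called probe sets, 96 were called with a filter at the 40th percentile of signal, 113 at the 60th, 1 without a variance trend, 14 without a trend and with the 40th percentile filter, 273 in the fit of 12 arrays, 0 with the *Gapdh* covariate (limma, 2031 at an unadjusted p below 0.05) and 17 at a threshold of 0.01. In the same order the called genes of chromosome 3 (11) numbered 18, 23, 0, 3, 41, 0 and 3, the called probe sets at which the pooled mean of Ept1 and Ept9 lay nearer Ept6 (30) numbered 55, 69, 0, 7, 177, 0 and 8, and the called list memberships (3) numbered 7, 7, 0, 1, 11, 0 and 1. List memberships were 5 with a pseudocount of 1 and 5 with array weights. With 1 array left out the counts were 10 to 39 probe sets, 3 to 7 genes of chromosome 3, 4 to 23 with the pooled mean nearer Ept6 and 0 to 3 list memberships. The Ept1 mean alone lay nearer Ept6 at 18, the Ept9 mean alone at 40, and both did at 16. All 53 probe sets kept their sign without each array. Among named genes the log2 difference reversed for *Pomc* without Ept2 replicate 3 (0.014, with −1.17 without Ept6 replicate 3 at the other end) and, with the *Gapdh* covariate, for *Lhb* (−0.36) and *Tshb* (−0.19), none of which was called. The cause of these shifts was not tested, apart from the number of probe sets and arrays that a filter or an omission removes.

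Deviations of same-numbered arrays from their line means correlated at 0.013, −0.135 and −0.0116. Those of different-numbered arrays ran from −0.101 to 0.111. With 3 arrays per line these values cannot settle whether the replicate numbers pair the samples. With the replicate block 41 probe sets and 5 genes of chromosome 3 were called. Having 3 arrays per line, the conflict over their independence, and the lack of an ACI array and of detection calls limit what these differences can show.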
